A study of Mus musculus with 6 samples.

Results

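Gata4 encodes a zinc-finger transcription factor of the primitive endoderm, the embryonic layer that gives rise to the yolk sac endoderm. Extra-embryonic endoderm (XEN) cells are the self-renewing cell lines of that layer. GATA4 and its paralog GATA6 recognise the same short DNA motif, WGATAR (A or T, then GATA, then A or G), and GATA factors are known in several lineages to occupy their own genes and those of their family members. The Gata4 gene itself was therefore examined as a place where both factors could be found, region by region.

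The data are CUT&RUN libraries, in which an antibody tethers a nuclease to a chromatin protein and the DNA released beside it is sequenced. There were 3 GATA4 and 3 GATA6 libraries, all from mouse XEN cells labelled 3F2, a line from mice with a doxycycline-inducible Oct4, Klf4, Sox2 and mCherry cassette at Col1a1, the M2rtTA transactivator at R26 and an Oct4-GFP reporter. All libraries share these alleles and were made from starting XEN cells, before any reprogramming. Each reaction used 500000 cells, and the labels state 30000000 reads per sample. The reads left after filtering are unknown, and the lists hold positions and signal, so cell identity could not be checked against marker levels. No IgG or other control list was used here. Nothing in the labels says that the replicates were separate cultures, so p-values measure the spread between these libraries, which may be technical.

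The Gata4 gene lies on the minus strand of chromosome 14 (mm10, 63198922 to 63271692) and has 6 annotated transcripts with 5 distinct transcription start sites (TSSs). The upstream-most TSS, at 63271692, belongs to Gata4-204. The TSS of Gata4-201, which spans the coding exons, is 26.4 kb further downstream at 63245271, and a short transcript, Gata4-203, starts at 63213607. All called regions inside the gene or within 100 kb of a TSS were taken, a window of 258086 bp from 63113607 to 63371692. The 6 library lists placed 196 regions there. Merged where they overlapped or touched, these gave 99 regions, out of 201994 in the whole series. Of the 99, 12 held all 13 GATA4 regions of the authors' combined list, the regions found in every GATA4 library, and 8 held the 8 GATA6 combined regions. There were 7 in both lists, 5 in the GATA4 list only, 1 in the GATA6 list only and 86 in neither. Below, a region is named by the distance of its signal maximum from the upstream-most TSS in kb, positive when downstream.

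**Figure D1:**
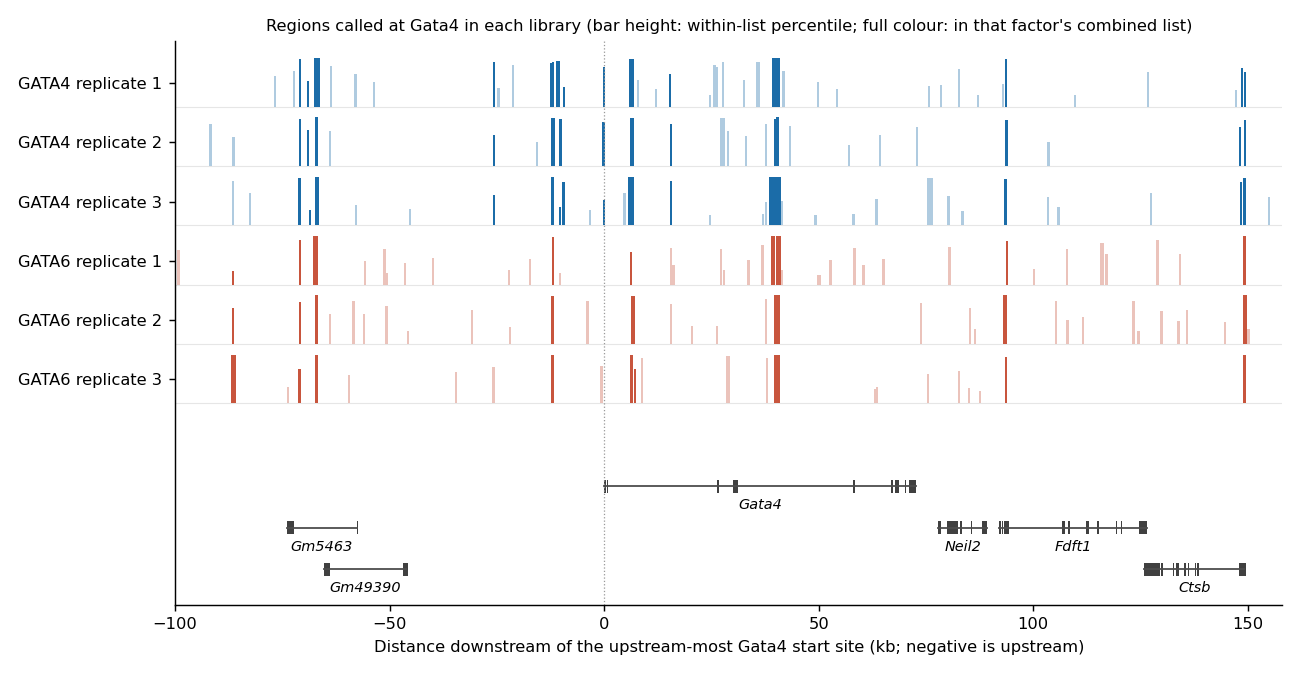
Called regions in the 6 libraries (GATA4 blue, GATA6 red) along the Gata4 window, by distance downstream of the upstream-most TSS in kb, above the exons of the annotated genes. Bar height is the within-list percentile of total signal (each bar is drawn at least 0.5 kb wide), and full colour marks regions of that factor's combined list. The bars at -67.0 and 40.4 kb are tall in all 6 libraries.

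The reference sequence at the signal maximum is shown for 6 of these regions, as they carry the results that follow: the strongest region in the gene, other regions shared by both factors, a pair in the GATA4 list only, and the Ctsb promoter. The sequences are the plus strand of GRCm38 (mm10), 5′ to 3′, and capitals mark WGATAR on either strand (a match on the minus strand is printed as its reverse complement). The 40.4 kb region was in both lists and held 4 matches. In the 15.5 kb region 2 matches overlap by 1 base. The Ctsb sequence stops at the first base before the annotated UTR and holds no match.
40.4 kb, Gata4 intron, chr14:63231224-63231374: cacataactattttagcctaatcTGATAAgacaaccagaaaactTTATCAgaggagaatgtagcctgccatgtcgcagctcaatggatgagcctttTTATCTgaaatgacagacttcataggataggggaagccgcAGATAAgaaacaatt
15.5 kb, Gata4 intron, chr14:63256087-63256237: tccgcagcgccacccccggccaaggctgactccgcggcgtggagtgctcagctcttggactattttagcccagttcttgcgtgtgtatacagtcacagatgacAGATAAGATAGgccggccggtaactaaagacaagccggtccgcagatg
6.3 kb, Gata4 intron, chr14:63265325-63265475: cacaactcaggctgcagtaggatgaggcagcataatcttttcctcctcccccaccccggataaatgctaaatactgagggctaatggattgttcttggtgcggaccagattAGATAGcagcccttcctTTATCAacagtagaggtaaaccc
-10.3 kb, between genes, chr14:63281944-63282094: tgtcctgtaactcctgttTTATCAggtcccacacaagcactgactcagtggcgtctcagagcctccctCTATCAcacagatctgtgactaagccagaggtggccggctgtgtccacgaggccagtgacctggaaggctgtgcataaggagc
-70.8 kb, Gm5463 intron, chr14:63342461-63342611: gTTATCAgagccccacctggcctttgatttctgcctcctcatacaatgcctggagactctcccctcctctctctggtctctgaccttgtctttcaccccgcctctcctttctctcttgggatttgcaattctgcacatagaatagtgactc
149.3 kb, Ctsb promoter, chr14:63122358-63122461: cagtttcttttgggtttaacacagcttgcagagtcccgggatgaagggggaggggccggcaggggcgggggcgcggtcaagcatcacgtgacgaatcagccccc

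The number of called regions at Gata4 did not separate the factors. The GATA4 libraries held 41, 27 and 34 regions in the window (34 ± 7, SD, n = 3) and the GATA6 libraries 37, 34 and 23 (31.3 ± 7.37, SD, n = 3). The counts overlapped between the factors, and their difference of 2.67 regions was smaller than the spread between replicates (two-sided exact permutation p = 0.7, where 3 against 3 cannot go below 0.1). Without GATA4 replicate 1 the difference was -0.833, and without GATA6 replicate 3 it was -1.5, so its direction rested on single libraries. The gene body alone held 14, 12 and 12 GATA4 regions and 15, 6 and 8 GATA6 regions by position of the maximum, again with overlapping groups (exact permutation p = 0.4).

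Most of the 99 regions were seen once. There were 62 regions called in 1 library (31 in a GATA4 and 31 in a GATA6 library), 18 called in 2, 6 in 3, 4 in 4, 2 in 5 and 7 in all 6. On the rest of chromosome 14, 82.7% of 22592 merged regions were called in 1 library, against 62.6% in the Gata4 window. The combined lists took 12.1% (GATA4) and 8.08% (GATA6) of the merged regions of the window, where they took 2.31% and 1.89% of those elsewhere on chromosome 14, and 7.07% were in both lists against 1.32% elsewhere. The 1 Mb to either side of the window held 546 merged regions, of which 4.58% were in the GATA4 and 3.3% in the GATA6 combined list. Counted within a library, 36.6%, 51.9% and 41.2% of the GATA4 regions at Gata4 lay in the combined list, compared with 11.8%, 12.97% and 10.5% on the rest of the chromosome. For GATA6 the shares were 24.3%, 23.5% and 39.1% at Gata4 and 8.15%, 9.81% and 9.54% elsewhere. Every library thus had a larger share of its regions in a combined list at Gata4 than on the rest of chromosome 14. Combined lists are built from overlaps between these same libraries, and the window was also denser in called regions. The part of density in these shares was not tested.

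The highest total signal of any 1 call at the locus lay inside the gene in 5 of 6 libraries. The 40.4 kb region (63230556 to 63233297) sits in the long intron between the first and second coding exons of Gata4-201, 13972 bp downstream of that transcript's TSS. Total signal is the fragment pileup summed over a region. It is not scaled for depth, so it was turned into a percentile within each library's own list. In GATA4 replicates 1, 2 and 3 the region stood at percentiles 99.96, 99.86 and 99.97, as the 18th, 64th and 15th strongest of 49597, 46646 and 48397 regions. In the GATA6 libraries it stood at 99.69, 99.94 and 99.90, ranks 143, 27 and 44 of 46484, 42446 and 44539. By total signal the values of the factors overlapped. By highest pileup they did not, with percentiles of 99.95, 99.90 and 99.94 for GATA4. The GATA6 percentiles by highest pileup were 99.06, 99.15 and 99.04. This was not particular to the 40.4 kb region. By highest pileup the factors also did not overlap at -67.0 kb (lowest GATA4 value 99.65, highest GATA6 value 99.61). The same held at -70.8 kb, with GATA4 higher, and at the Ctsb promoter, with GATA6 higher. The share of other chromosome 14 regions that separate by this measure was not counted. Among the regions of chromosome 14 alone, the ranks of the 40.4 kb region by total signal were 2, 8 and 1 in the GATA4 lists. They were 20, 3 and 4 in the GATA6 lists. It ranked first among the 7 regions of both lists in 5 of 6 libraries, the exception being GATA6 replicate 1, where the -67.0 kb region came first. In that library the 40.4 kb region was split in 2 pieces, with total signals of 4840 and 3129, and the stronger was used. The -67.0 kb region was 1 call of 5678 there. In GATA4 replicate 2 the 40.4 kb region was also split, into 6851 and 2363.

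The position of its maximum was also shared. In 5 libraries the maximum, the bases with the highest pileup, fell between 63231285 and 63231317, and in GATA6 replicate 2 a plateau ran from 63231294 to 63231945. The 4 WGATAR matches printed above lie 49 and 28 bp to one side and 24 and 64 bp to the other side of the median maximum. Of the 651 other chromosome 14 regions in a combined list, 1.69% held as many as 4 matches within 100 bp of the maximum, and at Gata4 the 40.4 kb region was 1 of 13 to do so. All 3 GATA4 libraries shared 1199 bp of it and all 3 GATA6 libraries 1093 bp.

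Further 5′ in the gene, both factors met at 6.3 kb (63264140 to 63266006), in an intron of the upstream transcripts Gata4-204 to Gata4-206 and 20.1 kb upstream of the Gata4-201 TSS. The GATA4 percentiles were 97.9, 98.7 and 98.4 and the GATA6 percentiles 58.1, 98.7 and 98.3. GATA6 replicate 1 was the lowest by total signal, in a call of 402 bp, but its highest pileup of 7 fragments equalled that of GATA6 replicate 2. At 15.5 kb (63255799 to 63256410), an intronic region of the GATA4 list only, the GATA4 percentiles were 59.2, 83.8 and 88.5. The same place was called in 2 GATA6 libraries, at 70.3 and 78.3, within the GATA4 range, so its absence from the GATA6 list rests on 1 library.

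At the start sites, GATA4 was called over the upstream-most TSS in all 3 of its libraries and GATA6 in none. The 0.0 kb region (63271471 to 63272532) was in the GATA4 list only. It is a UTR region by its median maximum, 26 bp into the first exon of Gata4-204. The maxima of single libraries, GATA6 replicate 3 included, spread over 658 bp. Its GATA4 percentiles were 77.8, 87.9 and 39.5, with a highest pileup of 5, 4 and 5 fragments. GATA6 replicate 3 had a region 296 bp upstream of the TSS at percentile 71.5. These are low pileups, and the difference between 3 and 0 libraries is itself a difference of 3 against 3 (exact permutation p = 0.1, the smallest possible). The TSS of Gata4-201 was covered in GATA4 replicate 1 and GATA6 replicate 2 only, and neither combined list held a region within 1 kb of it. The TSS of Gata4-203 was covered in 1 library of each factor.

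Upstream of the gene, 2 regions stand side by side at -10.3 and -12.0 kb. The -12.0 kb region (63283065 to 63284209) was in both lists, with GATA4 percentiles of 89.8, 99.2 and 98.9 and GATA6 percentiles of 98.4, 99.1 and 97.7. In GATA4 replicate 1, the lowest, the call was split in 2 pieces, of which the stronger was used. The -10.3 kb region (63280842 to 63282845) was in the GATA4 list only, at 92.9, 95.1 and 87.1, and among the GATA6 libraries replicate 1 alone called it, at 5.22. The 87.1 of GATA4 replicate 3 comes from a piece apart from the sequence shown, and its piece over that sequence stood at 22.6. By highest pileup the GATA6 call, 260 bp wide, had 7 fragments, no fewer than the GATA4 calls over the same bases, with 5, 7 and 7. The GATA4 libraries shared 199 bp of its 2004 bp. The -25.7 kb region (63297080 to 63297734), also GATA4 only, reached 89.8 in replicate 1 and 53.6 and 52.1 in replicates 2 and 3, with a GATA6 call at 68.6 in replicate 3.

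Another place ranked high in all 6 libraries, in an intron of the long noncoding RNA gene Gm5463. This -67.0 kb region (63337994 to 63339445) stood at 99.71, 99.51 and 99.68 in the GATA4 lists and at 99.84, 99.55 and 99.75 in the GATA6 lists, and its maxima lay within 55 bp of each other over the 6 libraries. It was the 16th, 27th and 19th strongest chromosome 14 region for GATA4 and the 11th, 30th and 15th for GATA6. Its neighbour at -70.8 kb (63342234 to 63342961), also in both lists, stood at 96.2, 95.2 and 95.7 for GATA4 and at 88.8, 83.4 and 64.2 for GATA6, so the lowest GATA4 value was above the highest GATA6 value. Between them, the -69.0 kb region (63340028 to 63340831) was in the GATA4 list only, at 41.3, 67.2 and 13.997, with no call in any GATA6 library. No base of it was shared by all 3 GATA4 libraries: the replicate 1 call touched both others, which did not touch each other, and it dropped out when at least 50% of the shorter region had to overlap. The remaining upstream region, at -86.5 kb (63357396 to 63358552), was the 1 region of the GATA6 list only. Its GATA6 percentiles were 11.3, 67.3 and 99.1, and 2 GATA4 libraries called it at 49.2 and 87.6, so the factors overlapped and replicate 3 set the high value.

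Downstream of the gene, the 2 combined-list regions were promoters of other genes. The 93.7 kb region (63177584 to 63178947) is in the UTR of Fdft1, the squalene synthase of sterol synthesis, with GATA4 percentiles of 97.9, 93.9 and 94.8 and GATA6 percentiles of 85.9, 99.3 and 94.3. The 149.3 kb region (63121917 to 63123694) has its maximum 29 bp from the TSS of Ctsb, which encodes the lysosomal protease cathepsin B. GATA6 stood there at 99.07, 99.57 and 98.91, and GATA4 at 75.3, 93.6 and 96.2, all below the lowest GATA6 value. It held 2 of the 13 GATA4 combined regions, the second of which was shared by all 3 libraries over 25 bp only. In GATA4 replicate 1 the piece over the promoter itself stood at 65.0, below its other piece.

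**Figure D2:**
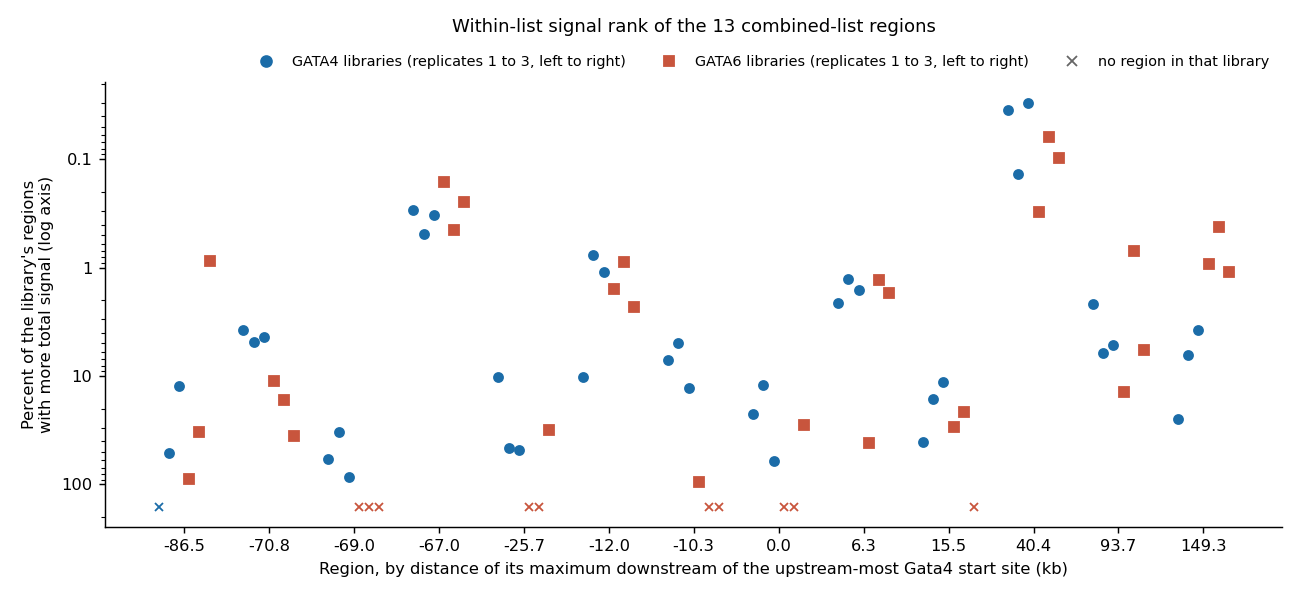
Percent of a library's regions with more total signal (log axis, strongest at the top) for the 13 combined-list regions, in order of distance downstream of the upstream-most Gata4 TSS in kb. Circles are the GATA4 and squares the GATA6 libraries in replicate order, and crosses mark libraries with no region there. The 40.4 and -67.0 kb regions are in the top 0.5% in all 6 libraries. Among the regions of both lists, the factors separate at -70.8 kb (GATA4 stronger) and 149.3 kb (GATA6 stronger).

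Averaged over the 7 regions of both lists, the within-list percentile was 96.2 ± 2.09 in the GATA4 and 93.4 ± 3.55 in the GATA6 libraries (SD, n = 3). The difference of 2.76 points gave a two-sided exact permutation p of 0.2, where 3 against 3 cannot go below 0.1. By the percentile of highest pileup in place of total signal, the difference was 3.55 points (exact permutation p = 0.1, the smallest possible). Taken one region at a time by total signal, the groups did not overlap at -70.8 kb, where GATA4 was 16.9 points higher. They also did not overlap at the Ctsb promoter, where GATA4 was lower, with a difference of -10.8 points. Each gave exact permutation p = 0.1, the smallest that 3 against 3 can give, and 0.35 after Benjamini-Hochberg adjustment over the 7 regions. Of 311 other chromosome 14 regions called in all 6 libraries, 9% had every GATA4 library above every GATA6 library and 5.79% the opposite, and 1 of 7 in each direction is no more than a description beside those shares. The other 5 regions overlapped between factors by total signal.

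Ratios of pileups within a library do not depend on its depth. The highest pileup of the 40.4 kb region was 38, 33 and 35 fragments in the GATA4 libraries, and that of the Ctsb promoter region 8, 11 and 13, so the intron was 4.75, 3 and 2.69 times the promoter. In the GATA6 libraries the intron reached 14, 13 and 14 and the promoter 20, 18 and 21, ratios of 0.7, 0.722 and 0.667. The order of the 2 places was thus opposite in every GATA4 and every GATA6 library. The ratio was 4.85-fold higher for GATA4 (mean log2 difference 2.28, exact permutation p = 0.1, the smallest possible). Against the -67.0 kb region, the 40.4 kb region was 1.65, 1.5 and 1.52 times as high in the GATA4 libraries and 0.824, 1 and 1 times in the GATA6 libraries (log2 difference 0.73, exact permutation p = 0.1). These pairs were chosen after their values were seen.

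Among the 13 combined-list regions, 10 (76.9%) held WGATAR within 100 bp of the median maximum, where 45% of the 651 other combined-list regions on chromosome 14 did. Among regions over 1 kb from a protein-coding TSS, 9 of 10 (90%) held it at Gata4 and 63.9% of 393 elsewhere. The 3 without a match were the Fdft1 and Ctsb promoters and the -86.5 kb region. The nearest match lay 4 bp from the median maximum at -10.3 kb, 10 bp at -69.0 kb and 24 bp at 40.4 kb. It lay as far as 87 bp at -67.0 and -12.0 kb. The maxima of single libraries spread over 995 bp at -10.3 kb, 575 bp at -69.0 kb and 333 bp at 40.4 kb. Median GC content over 100 bp to either side of the maximum was 50.7% at Gata4 and 52.2% elsewhere. The motif TGANTCA, that of the AP-1 factors, was found on either strand in 3 of the 13 (0.0, -10.3 and -70.8 kb), or 23.1%, against 10.6% elsewhere, and away from TSSs in 2 of 10 (20%) against 15%. In the 86 regions of no combined list, WGATAR was found in 26 (30.2%) against 41.1% of 21941 such regions elsewhere on the chromosome, with median GC of 47.0% and 41.3%. The part of base composition in that difference was not tested. A match is a description of the letters only.

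**Figure D3:**
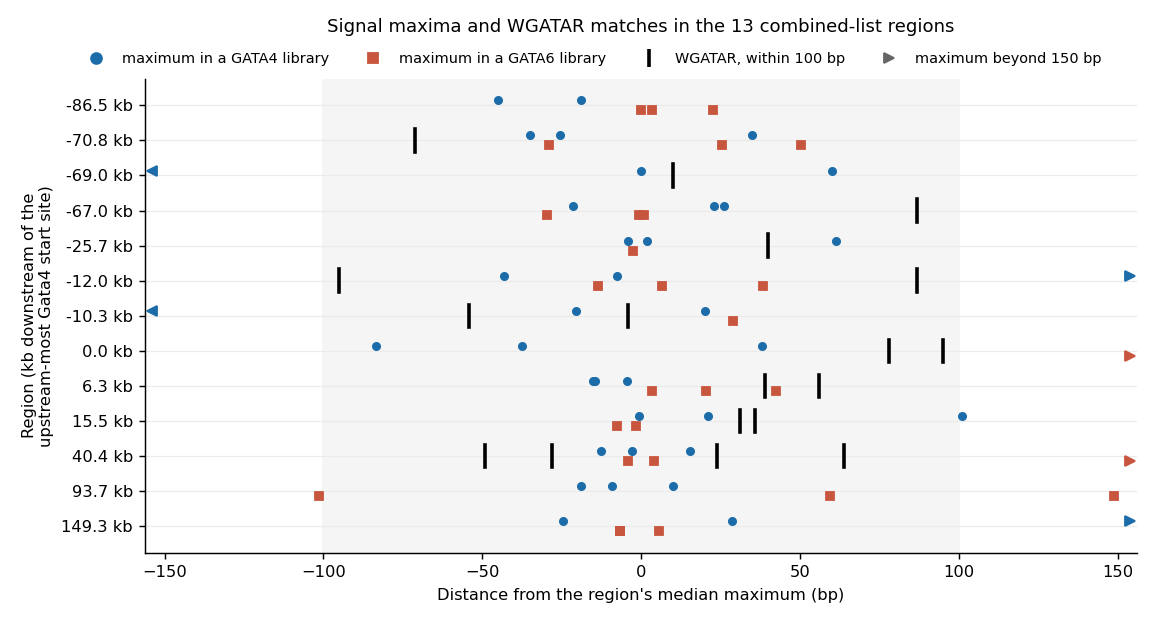
Position of the signal maximum in each library (circles GATA4, squares GATA6, arrows beyond 150 bp) and of WGATAR matches (black bars) relative to the median maximum in bp, for the 13 combined-list regions. At 40.4 kb the maxima of 5 libraries lie within the group of 4 matches, and the -86.5, 93.7 and 149.3 kb regions hold no match within 100 bp (shaded).

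The 86 regions of neither list are by definition not in every library of a factor. Over the libraries that called them they had within-list percentiles of 0.218 to 97.1 (median 47.1) and a highest pileup of 2 to 9 fragments (median 4), where the 13 regions of either list had percentiles of 5.22 to 99.97 (median 94.8) and pileups of 3 to 38 (median 9), so the ranges overlapped. Those called in 1 library had within-list percentiles of 2.15 to 91.1 (median 43.5) and a highest pileup of 2 to 6 fragments (median 4). The regions of both lists ranged over their libraries from 58.1 to 99.97 (median 98.6), with pileups of 3 to 38 (median 12.5) in the piece with most total signal. The 3 is from the Ctsb promoter region in GATA4 replicate 1, where the other piece reached 8. Of the 86, 29 had their maximum inside the Gata4 gene, 26 upstream and 31 downstream. There were 6 that occurred in 3 or more libraries without completing a set of 3. Inside the gene these were 63229638 to 63230488 and 63233549 to 63234272, to either side of the 40.4 kb region, and 63243450 to 63244684, 1422 bp downstream of the Gata4-201 TSS. The last was called in GATA4 replicates 1 and 2, at 89.6 and 97.1, and in GATA6 replicate 1, at 66.6. The others were 63195118 to 63196550 between Gata4 and Neil2, and 63329327 to 63330430 and 63335160 to 63335771 in the genes Gm5463 and Gm49390. By feature at the maximum, 61 of all 99 regions were intronic, 27 between genes, 6 in UTRs, 4 in exons of noncoding transcripts and 1 in a coding exon.

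Each library had 9.70% to 11.8% of its list on chromosome 14, so the window was set against its own surroundings. The libraries held 131.7 ± 27.1 (GATA4) and 121.4 ± 28.6 (GATA6) regions per Mb in the window (SD, n = 3), compared with 66.2 ± 6.45 and 69.5 ± 3.97 in the 1 Mb to either side. The density was higher at Gata4 in 6 of 6 libraries, by 1.31- to 2.22-fold, with a mean of 1.86 ± 0.306 (SD, n = 6) and a mean log2 ratio of 0.88 (two-sided exact sign-flip permutation p = 0.03125, the smallest that 6 libraries can give). The lowest ratio was that of GATA6 replicate 3. Against the rest of chromosome 14 the fold was 3.09 ± 0.555. In 50-kb bins over 2 Mb, the first 50 kb downstream of the upstream-most TSS had the highest mean count, 9.17 regions per library, where the median of 40 bins was 3.33. The next was 8 regions in the bin 750 to 800 kb upstream, which holds part of Rp1l1. In that first bin GATA4 libraries held 13, 10 and 10 regions and GATA6 libraries 10, 6 and 6, which overlap at 10.

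**Figure D4:**
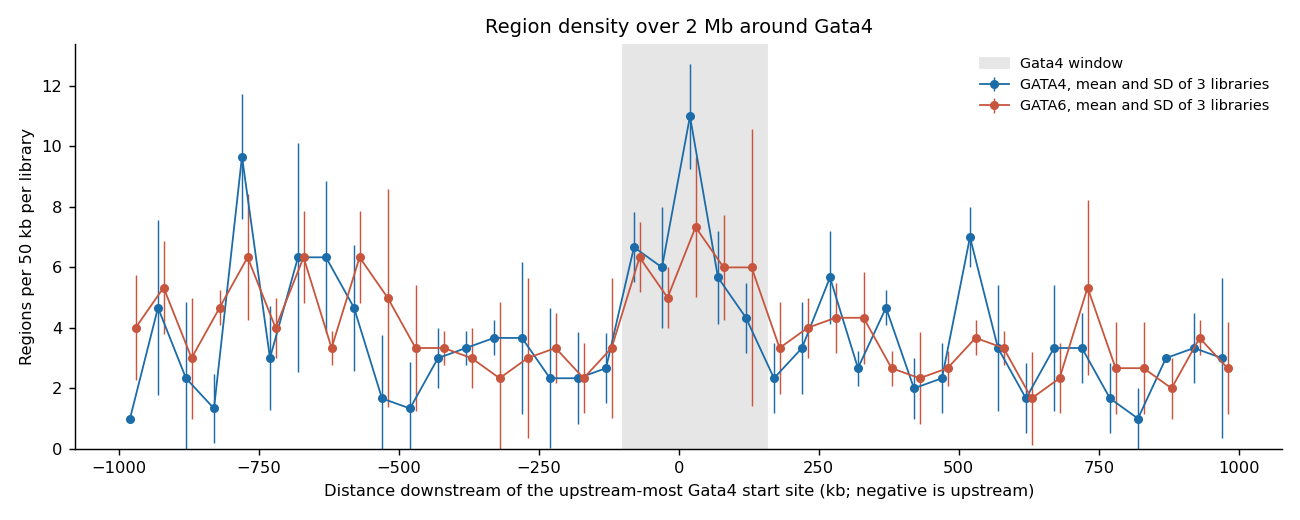
Called regions per 50-kb bin, mean and SD of 3 libraries per factor, over 1 Mb to either side of the upstream-most Gata4 TSS, with the window shaded. The bin from 0 to 50 kb is the highest for both factors, at 11 (GATA4) and 7.33 (GATA6) regions, and a second high bin for GATA4, 9.67, lies 750 to 800 kb upstream.

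The neighbouring genes had fewer combined-list regions. Of 28 protein-coding genes with a TSS within 1 Mb, none had as many as the 13 GATA4 or the 8 GATA6 regions of Gata4 when counted in the same kind of window (gene body or within 100 kb of a TSS): their GATA4 counts ran from 0 to 9 (median 4.5) and their GATA6 counts from 0 to 6 (median 3). Over chromosome 14, 61.2% of 901 other protein-coding genes had a GATA4 and 61.7% a GATA6 combined region in such a window. Some of these windows overlap that of Gata4. Among those, Neil2, a DNA glycosylase of base excision repair, had 9 GATA4 and 5 GATA6 regions, Fdft1 8 and 5, and Ctsb 5 and 4. Blk, a tyrosine kinase of B lymphocytes on the other side, had 7 and 5. The windows differed in width, with 258.1 kb for Gata4 and 200.3 kb for Neil2. Per Mb of window Gata4 had 50.4 GATA4 regions and Neil2, the highest neighbour, 44.9. Further off, with windows that do not overlap, Rp1l1 and 4930578I06Rik each had 8 and 5, and Pinx1, named after its values were seen as the highest for GATA6, had 5 and 6. When each region was given only to its nearest protein-coding TSS, Gata4 kept 7 GATA4 regions, and Neil2 had 0, Fdft1 1, Ctsb 2, Blk 4, Rp1l1 5 and 4930578I06Rik 0. By the same count Gata4 had 3 GATA6 regions and Blk 4, so Gata4 did not lead its neighbours for GATA6.

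**Figure D5:**
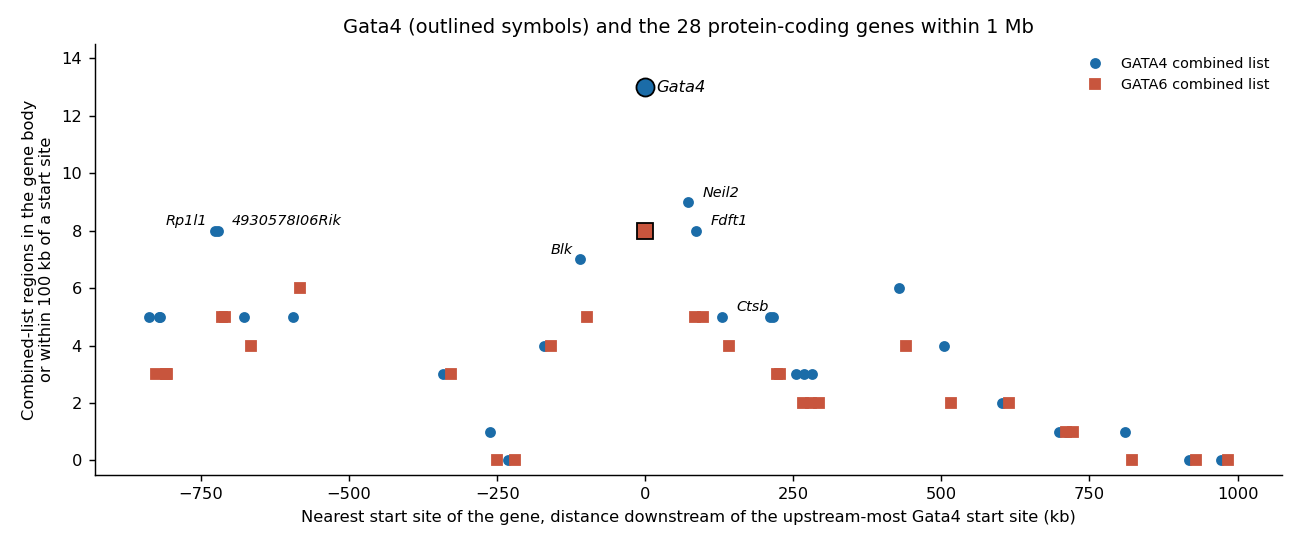
Number of GATA4 (circles) and GATA6 (squares) combined-list regions in the window of each of the 28 protein-coding genes within 1 Mb, by distance of its nearest TSS downstream of the upstream-most Gata4 TSS in kb, with Gata4 outlined. Gata4 has 13 and 8, and the highest counts among the neighbours are 9 (GATA4) and 6 (GATA6). Windows differ in width, and those of genes that lie close together overlap.

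Over the chromosome, 894 of 901 other protein-coding genes (99.2%) had fewer GATA4 combined regions than Gata4, and 96.3% had fewer GATA6 regions. The 3 genes with more, Cideb, Ltb4r1 and Ltb4r2 with 14 each, and the 4 with as many, Adcy4, Nfatc4, Nynrin and Ripk3, all lie together between 55754050 and 55874736 and have overlapping windows. They are named after their values were seen, as are Serp2, with 10, and Olfm4, with 8, the 2 genes above Gata4 by nearest TSS. The window of Gata4 is wider than those of the 7 genes by window count: it had 50.4 GATA4 regions per Mb of window, against 61.6 to 70.0 for these 7 genes. Per Mb of window, 98.9% of the 901 genes had fewer GATA4 regions than Gata4 and 10 had more. For GATA6 per Mb, 95.2% had fewer and 43 had more. By nearest TSS, 16 genes had more GATA6 regions than Gata4.

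A list of 16 genes of the primitive endoderm, transcription factors, receptors and basement-membrane genes of this lineage, was counted in the same way. All 16 had a GATA4 combined region in their window, where 59.9% of 21951 protein-coding genes of the genome did, and 15 had a GATA6 region, where 49.9% did. The genes were chosen with earlier results of these data known, so these shares are a description only. The list held 1 to 13 GATA4 regions per gene (median 4.5) and 0 to 8 GATA6 regions (median 3), and none exceeded Gata4 in either. Fgfr2, a receptor for fibroblast growth factors, also had 13 GATA4 regions, in a window of 3155 kb, and Col4a2, a collagen IV chain of the basement membrane, also had 8 GATA6 regions. Lamb1, a laminin chain, had 9 and 6, Sparc, a matrix glycoprotein, 8 and 5, Foxa2, a forkhead factor of endoderm, 7 and 2, and Sox7, which lies 672 kb upstream of Gata4 on the same chromosome, 5 and 4. Gata6 itself had 4 GATA4 and 1 GATA6 region. Nid1, which encodes nidogen, had 1 and 0. Wider windows give more room for regions, and no count was scaled for that here. Of the list only Sox7 lies on chromosome 14, which held 544 of the 8282 GATA4 and 437 of the 5170 GATA6 combined regions. The counts were not scaled for the density of a chromosome either.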

How the data were processed

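CUT&RUN for GATA4 and GATA6 (3 libraries each, grouped by title) was processed by the authors. They aligned reads to mm10 with Bowtie2 2.3.4.1 and removed duplicates, low-quality, mitochondrial and blacklisted reads. They called regions per library with SEACR 1.3 at a numeric threshold in place of a control library. A call is thus not a test against a control, and the highest pileup of a call at Gata4 was as low as 2 fragments. The deposited signal values (total and maximum pileup per region) are unscaled, so only ranks or ratios within a library were used. The deposited combined lists hold positions. Recomputed common regions equalled them for 544 of 544 (GATA4) and 437 of 437 (GATA6) on chromosome 14. The study's methods text names lines 3F2 and 3F6 and fewer replicates. The labels were followed.

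Regions were merged where they overlapped or touched. Where a library had several regions in a merged one, that with the most total signal gave the percentile. Genes came from GENCODE M21, sequence from GRCm38; that of the -67.0 kb region is not reported here. Gata4 had no entry in the RefSeq promoter table. Two-sided exact permutation tests compared 3 with 3 libraries, and sign-flip tests used all 6. The members and gene lists were chosen with earlier results of these data known. Combined-list regions, and others in 3 or more libraries, are named, with neighbours inside the window or among the 5 with most GATA4 regions. The code was tested on simulated data and used scipy 1.17.1 under Python 3.11.15, with pandas 2.3.3 and numpy 2.4.6, and matplotlib 3.10.9 for plots.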

Additional observations from a re-analysis of the deposited data

How the results depend on the processing

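Of 75 alternative values, 58 kept their direction and side of the threshold, or stayed within 1.5 times a count. The difference in regions per library ranged from -1.5 to 6.17 when 1 library was left out, with -0.833 without GATA4 replicate 1 and -1.5 without GATA6 replicate 3. The log2 density ratio to the 1 Mb flanks was 0.822 to 0.974 with 1 library left out, where 5 libraries cannot go below an exact p of 0.0625. The GATA4 combined regions numbered 8 in a 50 kb window and 22 in at least 2 of 3 libraries. The GATA6 combined regions numbered 4 and 16 under those settings, and 8 to 14 with 1 GATA6 library left out, the 14 being without replicate 3. The merged regions numbered 53 in stricter lists (the strongest 21223 regions of each) and 65 in a 50 kb window. By the GATA6 list, 96.3% of chromosome 14 genes had fewer regions than Gata4. Within 50 bp of the maximum, 6 of 13 regions held WGATAR.

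With the replicate block, the difference in regions was 2.67 (exact sign-flip p = 0.75) and that in percentile 2.76 points (p = 0.25, the smallest that 3 pairs allow). Deviations of same-numbered libraries correlated at -0.00316 to 0.00397, so the numbers were not taken as pairs. Signal is unscaled and filtered depth unknown, so a region missing from a list cannot be told from one not detected at its depth.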
